A study of Gallus gallus with 5 samples.

Results

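The comparison set a DT40 line that lacks its own H2A.Z genes and carries H2A.Z.1 (DKO+H2A.Z.1) against the double knockout from which it was made (DKO), with 1 array for each line, so 2 of the 5 arrays of the series. The arrays were taken by their titles, lay on the same slide, and were read over every probe well above background on at least 1 of them. This left 30466 of 43603 probes and 4345 of 5382 named genes. DT40 is an avian leukosis virus-transformed bursal B cell line of the chicken. DKO cells have both H2A.Z isoforms knocked out, and DKO+H2A.Z.1 cells in addition express H2A.Z.1 stably. WT (clone cl18) and the lines with mutant H2A.Z.1, DKO+H2A-H2A.Z and DKO+5KR-H2A.Z, are given beside them as levels. WT lay on the slide of the compared arrays and the mutant lines on another slide. For the mutant lines, slide and line cannot be told apart. All 5 cultures grew with 10% fetal bovine serum and chicken serum and received tetracycline at 2 µg/ml for 72 hours, WT included, to shut off a tetracycline-repressible H2A.Z.1 transgene, and the labels do not say which lines carry it. The sources used here do not say whether each complemented line is a single clone. The labels of the DKO array disagree among themselves: the title and the source name read as the double knockout, whereas the description and the genotype entry carry the wording of the H2A.Z.1-expressing line. All directions below rest on the title.

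H2A.Z is a variant of histone H2A that replaces the canonical protein in nucleosomes, above all in those flanking the start sites of genes and at enhancers. Vertebrates make it from a pair of genes, for H2A.Z.1 and H2A.Z.2, and remodelling complexes of the SWR1 and INO80 families put it in and take it out. Its N-terminal tail is acetylated at active promoters, and in stem cells it also marks silent developmental genes together with Polycomb proteins.

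Values are levels on a log2 scale, relative to the 75th percentile of the same array, so that 0 stands for a fairly bright spot and 1 unit for a 2-fold step. A difference is the DKO+H2A.Z.1 level minus the DKO level, and a gene was called when the lines were at least 2-fold apart. With 1 array per line no difference has a replicate check, a test or an error from cultures. The spread that could be measured was between spots of the same probe on the same array, with a median SD of 0.0569 on the DKO array and 0.0562 on the DKO+H2A.Z.1 array. It covers the array alone. Of 43803 spots, 29137 were well above background on the DKO array and 30115 on the DKO+H2A.Z.1 array, and none was saturated.

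The gene for H2A.Z.1 was read first, under its older symbol H2AFZ. Probe A_87_P037084 stood at 1.11 in DKO and 0.81 in DKO+H2A.Z.1, against 5.87 in WT. Probe A_87_P194348 stood at -0.37 and -0.31, against 6.17 in WT. Both probes thus read the compared lines alike, with differences of -0.31 and 0.06, and well under WT. Which part of the transcript they cover is not known here, so they check neither the added H2A.Z.1 nor the disputed label. No named probe stood for H2A.Z.2.

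Markers of the B cell were present on both arrays: all 11 that had a named probe were well above background, and their summed level on the linear scale was 205.6 in DKO and 178.3 in DKO+H2A.Z.1. The differences of these 11 genes ran from -0.28 to 0.35, with CD79B, a chain of the B cell receptor, at 6.86 and 6.58. Among 7 T cell markers 5 were above background on each array, summing to 75.9 and 71.5 and led by CD3D at 6.24 and 6.15, while CD4 and GATA3 were not well above background on either. Of 9 myeloid markers 6 were well above background in DKO and 7 in DKO+H2A.Z.1. They summed to 9.22 and 7.85 and were led by CTSS at 3.09 and 2.82, with CD14 and MARCO not well above background on either array. Of 7 fibroblast markers 4 and 5 were well above background, summing to 1.18 and 1.16. COL1A2 led them at 0.14 and 0.06, VIM read -7.81 and -4.61, and DCN and PDGFRA were not well above background. Of 5 erythroid markers 3 were well above background on each array, summing to 0.105 and 0.0784. In such bulk samples fewer cells of a type and less RNA per cell cannot be told apart.

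Among genes at least 2-fold apart, more were higher in DKO+H2A.Z.1 than in DKO. Of 4345 genes, 466 were at least 2-fold apart (10.7%), 351 of them higher in DKO+H2A.Z.1 (8.08%) and 115 lower (2.65%). At 4-fold the counts were 93 and 24, and at 8-fold 14 and 8. The bulk of the genes sat slightly on the other side: the median difference was -0.21, with 2890 genes below 0 and 1455 above, so the excess of higher genes came from a long upper tail, the 5th and 95th percentiles being -0.79 and 1.37. Over all 30466 probes, named or not, 3863 were apart (12.7%), 9.63% higher and 3.05% lower. The 75th percentile of the raw signal was 1115 on the DKO array and 1558 on the DKO+H2A.Z.1 array, and scaling to the spike-in probes in its place moved the median of all genes to 0.34 and the counts to 724 higher and 37 lower. Median centring gave 278 and 172.

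**Figure D1:**
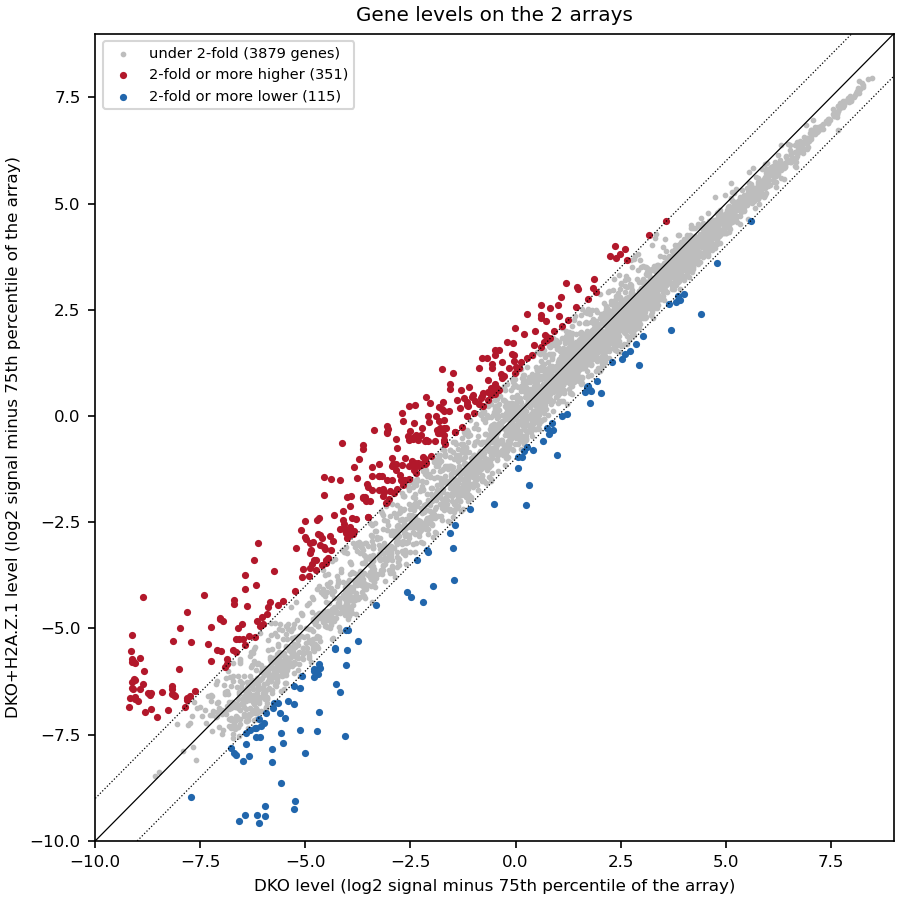
Level of each of 4345 genes in DKO (horizontal axis) and DKO+H2A.Z.1 (vertical axis), both log2 relative to the 75th percentile of the array, with the line of equal levels solid and the 2-fold lines dotted. Red points are the 351 genes at least 2-fold higher and blue points the 115 that were 2-fold or more below DKO; points with a level near -9 are not well above background on that array.

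Genes with a low or middling signal in WT, an array that takes no part in the comparison, made up most of the calls. When genes were ranked by WT level and cut into 4 equal parts, 13.1% of the lowest part were higher and 6.72% lower, and 13.2% and 2.39% of the second. In the third these shares were 4.79% and 1.20%, and in the highest 1.29% and 0.276%. The median difference was -0.16, -0.02, -0.16 and -0.35 from the lowest part to the highest. Of the 351 higher genes, 55 had no probe well above background in DKO, and for 29 of these the bound still reached 2-fold. Genes with only the brightest probe dim in DKO, such as VIM, are not among the 55. Of the 115 lower genes, 34 had no probe well above background in DKO+H2A.Z.1, and for 26 the bound reached 2-fold.

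The gene list that stood furthest from the rest was that of the cilium and centrosome. Cilia are microtubule-based projections of the cell surface that grow from a centriole, are built by intraflagellar transport (IFT) and are gated by a transition zone. Of 24 measured genes of the list, 12 were above DKO by 2-fold or more and 0 below it, against 8.08% and 2.65% of all genes. The list's median difference was 0.92, where that of all genes was -0.21.

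Genes of intraflagellar transport lay on both sides of the threshold. IFT27, a small GTPase of the IFT-B complex, stood at -0.18 in WT, -2.57 in DKO, -0.48 in DKO+H2A.Z.1, -0.60 in the DKO+5KR-H2A.Z line and -0.31 in DKO+H2A-H2A.Z. Its difference was 2.09 (4.26-fold), its 4 probes ranged from 2.01 to 2.09, and DKO was the single low array. IFT27 was picked by its weakest probe, so this agreement of its probes is fixed by the choice. The low DKO reading is part of that choice too, so the other arrays give no separate check of it. HSPB11, known as the IFT25 partner of IFT27 and kept here in the heat shock list, stood at 0.26 in WT, -1.16 in DKO, 0.25 in DKO+H2A.Z.1, and 0.05 and 0.26 in the lines with 5KR-H2A.Z and H2A-H2A.Z. Its probes gave 1.41 and 1.45. TTC30B, an IFT-B subunit that holds the train together, read -0.56, -3.05, -0.37, -0.65 and -0.21 in the same order of arrays and differed by 2.68. IFT81, which binds tubulin cargo, read -1.20, -1.93, -0.59, -0.64 and -0.45 and differed by 1.33 to 1.68 over 3 probes. By contrast IFT52, of the IFT-B core, read 3.03 in DKO and 3.23 in DKO+H2A.Z.1, and IFT140, of the retrograde IFT-A complex, 0.39 and 0.56. The motor subunits KIF3A and KIF3B differed by 0.49 and 0.78. So the train subunits did not move as a block: IFT27, HSPB11, TTC30B and IFT81 were past 2-fold, and IFT52, IFT140 and both motor subunits were not.

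Genes past 2-fold were also found in the transition zone and in the BBSome, the coat that carries membrane proteins out of the cilium. CC2D2A, a transition zone protein, stood at -1.17 in WT, -4.55 in DKO, -1.44 in DKO+H2A.Z.1, -2.19 in the DKO+5KR-H2A.Z line and -1.53 in DKO+H2A-H2A.Z. Its single probe gave a difference of 3.11, or 8.66-fold. TMEM17, of the same zone, read -0.34, -2.32, -1.11, -1.01 and -0.80 and differed by 1.21, with DKO+H2A.Z.1 part of the way between DKO and WT. BBS4 read 0.60, -1.58, 0.12, 0.05 and 0.26, and its 3 probes gave 0.77 to 2.08. BBS5 read -0.80, -1.82, -0.40, -1.21 and -0.67 and differed by 1.42 and 1.75 on its probes. BBS2, a further BBSome subunit, differed by only -0.24.

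Axonemal and centriolar genes completed the group. NME5, a protein of motile axonemes, stood at 0.49 in WT, -3.07 in DKO, -0.39 in DKO+H2A.Z.1, -0.81 in the DKO+5KR-H2A.Z line and -0.03 in DKO+H2A-H2A.Z, and its probes differed by 2.68 and 2.85. SPAG6, of the axoneme's central pair, was not well above background in DKO and was at least 3.83-fold higher with H2A.Z.1, where it stood at -5.36. With the normexp background correction, which pulls dim spots together, its difference was 0.17. DNAL1, a light chain of outer arm dynein, read -4.50 in DKO and -3.39 in DKO+H2A.Z.1 and differed by 1.1 to 1.38 over 3 probes, a dim one taken at its bound. POC1B, a centriole protein, read -4.08 and -2.55, a difference of 1.53. ODF2, of the mother centriole's appendages, read 0.38 and 1.43 and was nearest to the threshold at 1.05, with 2 of 4 probes past 2-fold. SASS6, of the centriole's cartwheel, and NEK2, a centrosomal kinase, differed by 0.06 and 0.03, PCM1 of the centriolar satellites by -0.20, CEP41 by 0.39, CFAP36 by 0.00 and CFAP20 by -0.50.

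**Figure D2:**
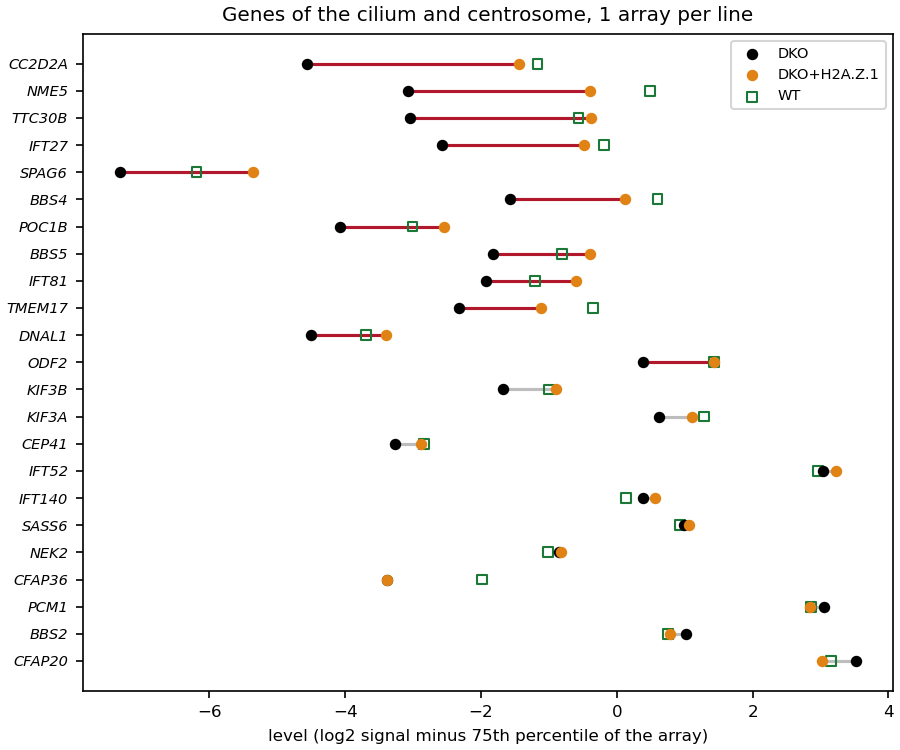
Levels of 23 of the 24 measured cilium and centrosome genes (log2 relative to the 75th percentile of the array) in DKO (black), DKO+H2A.Z.1 (orange) and WT (green squares), 1 array each, ordered by difference from CC2D2A at 3.11 to CFAP20 at -0.50. Red bars join the 12 genes at least 2-fold apart, all with DKO on the left; SPAG6 in DKO was not well above background.

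Because dim genes were called more often, the list was also read by WT level, with all genes split at the median. Of the 18 cilium genes on the dim side, 11 were higher, against 13.1% of the 2172 genes there. Of the 6 on the bright side, 1 was, against 3.08%. The median difference was 1.27 on the dim side, where that of all genes was -0.09. On the bright side it was -0.0005 against -0.27, so the shift of the list lay mainly in its dim members. CC2D2A and NME5 were already known to differ in these data, and without them 10 of 22 were higher and the median was 0.64. The whole list was written with earlier results of these data known, so the remaining genes are no independent check. Over the 10 other ways of processing, 9 to 14 members were higher, the median ran from 0.47 with normexp to 1.47 with spike-in scaling, and it lay 0.70 to 1.12 above the median of all genes.

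**Figure D3:**
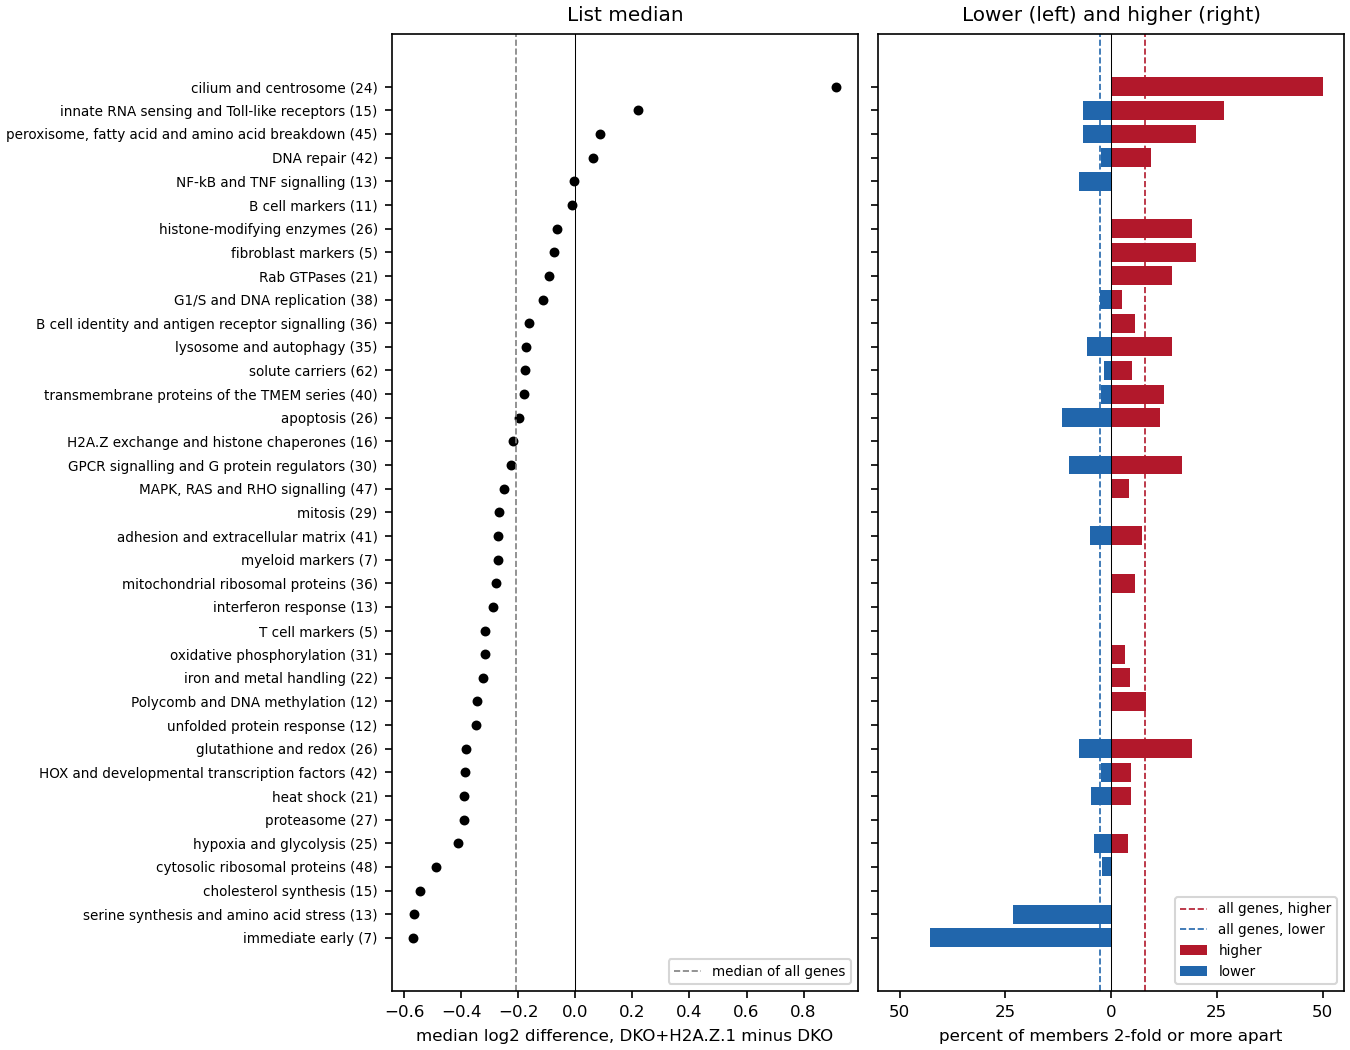
Median difference, DKO+H2A.Z.1 minus DKO on the log2 scale (left), and percent of measured members at least 2-fold lower (blue, leftwards) or higher (red, rightwards) for 37 gene lists with 5 or more measured genes, the number in brackets. Dashed lines mark all genes, at a median of -0.21 and at 2.65% and 8.08%; the cilium and centrosome list lies alone at the right with a median of 0.92, and the immediate early list has the largest lower share, 3 of 7.

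Enzymes of peroxisomes and of fatty acid and amino acid breakdown held 9 higher and 3 lower genes of 45, against 8.08% and 2.65% of all genes, with a median of 0.08. ALDH4A1, the mitochondrial enzyme of proline breakdown, stood at 0.38 in WT, -2.71 in DKO, 0.07 in DKO+H2A.Z.1, -0.41 in the DKO+5KR-H2A.Z line and -6.02 in DKO+H2A-H2A.Z. Its difference was 2.78, and the lowest of the 5 arrays was not DKO but the H2A-H2A.Z line. IVD, of leucine breakdown, read -2.32 and -0.56 in DKO and DKO+H2A.Z.1, and MCEE, of propionate metabolism, -3.05 and -1.5. PEX7, the receptor that imports a class of peroxisomal enzymes, read -2.62 and -0.99, and PEX2, of the export machinery of those receptors, -0.32 and 0.89. ECHDC3 differed by 2.13, CPT2, which readies fatty acids for oxidation in mitochondria, by 1.13, AMACR by 1.06 and ECHS1 by 1.02. On the lower side MAT1A, which makes S-adenosylmethionine and is best known from liver, stood at -5.41 in WT, -4.05 in DKO, -7.54 in DKO+H2A.Z.1, -7.82 in the DKO+5KR-H2A.Z line and -5.80 in DKO+H2A-H2A.Z. It was not well above background in DKO+H2A.Z.1 and was at least 10.3-fold lower there, whereas with normexp background correction MAT1A differed by only -1.32. GLDC, of the glycine cleavage system, differed by -1.24.

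Of 26 measured genes of the glutathione and redox list 5 were higher and 2 lower, against 8.08% and 2.65% of all genes. MPST and TST are neighbouring genes for sulfurtransferases. MPST stood at -9.37 in WT, -1.56 in DKO, 0.64 in DKO+H2A.Z.1, 0.76 in the DKO+5KR-H2A.Z line and 0.87 in DKO+H2A-H2A.Z, and TST at -5.61, -0.65, 0.85, 0.41 and 0.85. Here WT was the low array, DKO was intermediate and the complemented lines were high, unlike the cilium genes, and the differences were 2.20 and 1.5. GSTZ1, of tyrosine breakdown, stood at 0.98 in WT, -1.49 in DKO, 1.02 in DKO+H2A.Z.1, 0.02 in the DKO+5KR-H2A.Z line and 1.03 in DKO+H2A-H2A.Z, a difference of 2.51 with DKO lowest. CHAC1, which degrades glutathione and is switched on by amino acid stress, was lower in DKO+H2A.Z.1 by -1.52 to -1.68 on all 4 probes.

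Of 26 histone-modifying enzymes measured 5 were higher and 0 lower, with a median of -0.06. Of all genes 8.08% were higher and 2.65% lower, so that in a list of this size no lower gene is no result. JMJD7, a jumonji-domain hydroxylase, stood at 1.07 in WT, -1.75 in DKO, 1.1 in DKO+H2A.Z.1, 0.81 in the DKO+5KR-H2A.Z line and 1.23 in DKO+H2A-H2A.Z, and its probes gave 2.85 and 3.07. SMYD2, a lysine methyltransferase, stood at 2.28, -0.01, 2.07, 1.66 and 2.16 in that order, a difference of 2.08. For both genes DKO was the low array and the other 4 lay close together. Both were picked by their difference from the 1 DKO array, so this order gives no separate support. The deacylases SIRT5, HDAC4 and HDAC11 differed by 1.71, 1.37 and 1.34, although for HDAC11 only 1 of 3 probes passed 2-fold. Of the 16 measured genes of H2A.Z exchange and histone chaperones 0 were called and the median was -0.22, close to that of all genes. INO80, the ATPase of a remodeller that acts on H2A.Z, differed by -0.74, ANP32E, the chaperone that removes H2A.Z, by -0.37, and ING3, of the TIP60 complex, by 0.96. Among 12 Polycomb and DNA methylation genes PHC1, a subunit of PRC1, was the single call, at 1.23, with 4 of its 5 probes past 2-fold and the fifth at -0.30. Of 42 measured HOX and developmental transcription factors HOXA4 (2.91) and MEIS2 (1.24) were higher. SNAI1, not well above background in DKO+H2A.Z.1, was 3.08-fold lower there when its own dim value was used. With normexp background correction MEIS2 differed by 0.57 and SNAI1 by -0.61.

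Genes of innate RNA sensing and Toll-like receptors had a median of 0.22, with 4 of 15 higher and 1 lower, a small list to set against 8.08% and 2.65% of all genes. MAVS, the mitochondrial adaptor of cytosolic RNA sensors, stood at -1.22 in WT, -4.13 in DKO, -0.64 in DKO+H2A.Z.1, -1.36 in the DKO+5KR-H2A.Z line and -1.07 in DKO+H2A-H2A.Z. Its brightest probe gave 3.49, yet its probes disagreed, from 0.59 to 3.49. ZC3HAV1, an antiviral protein that binds viral RNA, stood at -5.68, -4.89, -2.98, -3.36 and -3.37 and was higher by 1.90 and 2.42 on its probes, the second not well above background in DKO and with a bound of 2.14. The receptors TLR3 and TLR1A differed by 1.39 and 1.13, and their smallest differences over the alternatives were 0.04 and 0.41. IRF1, the transcription factor of the interferon response, was the lower one: it stood at -2.84 in WT, -2.20 in DKO, -4.38 in DKO+H2A.Z.1, -4.48 in the DKO+5KR-H2A.Z line and -4.48 in DKO+H2A-H2A.Z. All 3 complemented lines were thus below both DKO and WT, and the difference was -2.18. Of the 13 genes of the interferon response list 0 were called, with a median of -0.29.

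B cell identity and receptor signalling held 2 called genes among 36, both higher, where 8.08% of all genes were. STIM1, the calcium sensor of the endoplasmic reticulum, stood at -0.68 in DKO and 1.36 in DKO+H2A.Z.1, a difference of 2.04. A second probe, not well above background in DKO, differed by 1.96, with a bound of 0.03. TNFSF13B, the survival factor BAFF, was higher by 1.23, with 4 of its 5 measured probes past 2-fold, 1 of these not well above background in DKO and with a bound under 2-fold (0.92).

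DNA repair genes had a median of 0.06, with 4 of 42 higher and 1 lower, near the 8.08% and 2.65% of all genes, so that the count itself says nothing about the list. NBN, of the MRN complex that senses double-strand breaks, stood at -1.21 in WT, -3.64 in DKO, -0.77 in DKO+H2A.Z.1, -1.45 in the DKO+5KR-H2A.Z line and -0.58 in DKO+H2A-H2A.Z, so DKO was the low array and the difference was 2.87 on 1 probe. RAD51D, of homologous recombination, stood at 2.99, 0.61, 2.32, 2.03 and 3.04 and differed by 1.71, and FANCC, of the Fanconi anaemia core complex, by 1.26. DCLRE1C, the Artemis nuclease, was not well above background in DKO and was 5.13-fold higher with H2A.Z.1 when its own dim value was used. With normexp background correction its difference was 0.51. NEIL1, a glycosylase, was lower by -1.04 on 1 probe and was past 2-fold in 6 of the 10 alternatives. It fell under 2-fold with normexp, cyclic loess, spike-in scaling and in the authors' value table. Filters on dim probes leave the value of a gene as it is, so here and below those alternatives could not undo a call. Mitotic genes gave 0 calls among 29 (median -0.27), and G1/S and replication genes 1 in each direction among 38, ORC3 at 1.23 and CDKN1A at -1.05. CDKN1A was past 2-fold in 7 of the 10 alternatives.

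Among 26 apoptosis genes 3 were higher and 3 lower, against 8.08% and 2.65% of all genes, and nothing is read from counts this small. CRADD, an adaptor of caspase-2, stood at -3.77 in WT, -8.86 in DKO, -4.27 in DKO+H2A.Z.1, -5.15 in the DKO+5KR-H2A.Z line and -3.97 in DKO+H2A-H2A.Z. As it was not well above background in DKO, it was at least 8.17-fold higher with H2A.Z.1, on a single probe. With normexp background correction the difference of CRADD was only 0.66. CASP8 and RIPK1, which act together below death receptors, differed by 1.68 and 1.38. The genes on the lower side were the BH3-only protein BIK, at 0.33 in DKO and -1.63 in DKO+H2A.Z.1, the BH3-only protein BMF (-1.01) and the death receptor TNFRSF21 (-1.16).

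G protein signalling contained a called pair whose products are known to bind each other. GNB5, the beta subunit that pairs with RGS proteins of the R7 family, stood at -4.69 in WT, -6.69 in DKO, -4.41 in DKO+H2A.Z.1, -4.61 in the DKO+5KR-H2A.Z line and -4.59 in DKO+H2A-H2A.Z, a difference of 2.28. RGS7, a member of that family, stood at -5.39, -5.00, -7.93, -6.92 and -5.26 and was not well above background in DKO+H2A.Z.1, where it was at least 5.33-fold lower. The members of the pair were thus called in opposite directions, but with normexp background correction both were under 2-fold, GNB5 at 0.53 and RGS7 at -0.93. Over the list 5 of 30 were higher and 3 lower, against 8.08% and 2.65% of all genes. RGS18, ADCY6, P2RY6 and GNG2 were the other higher genes, and P2RY8 and GPR137B the other lower ones, the latter with all 5 probes between -1.37 and -1.5. ADCY6 was called at 1.61 on its brightest probe, but its second measured probe gave 0.46. With normexp ADCY6 differed by 0.14.

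Lysosomal genes gave 5 higher and 2 lower of 35, against 8.08% and 2.65% of all genes. IDUA, which degrades glycosaminoglycans, stood at -1.89 in WT, -4.31 in DKO, -2.34 in DKO+H2A.Z.1, -2.63 in the DKO+5KR-H2A.Z line and -2.11 in DKO+H2A-H2A.Z, and its 3 probes gave 1.97 to 2.09. HEXA, of ganglioside breakdown, differed by 1.95, with 2 of 3 probes past 2-fold and the third at 0.42. CLN8 and ATG4A differed by 1.12 and 1.07, and GUSB and ARSA, a glucuronidase and a sulfatase, by -1.13 and -1.02. GUSB was past 2-fold in 6 of the 10 alternatives and CLN8 in 8.

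HIF1A, the oxygen-regulated transcription factor, stood at -0.35 in WT, -2.67 in DKO, -0.13 in DKO+H2A.Z.1, -0.50 in the DKO+5KR-H2A.Z line and -0.18 in DKO+H2A-H2A.Z, and its 7 probes gave 2.14 to 2.66. The hypoxia and glycolysis list that holds it had a median of -0.41, with MXI1, at -1.11, the sole further call of 25. Of all genes 8.08% were higher and 2.65% lower, so nothing is read from this count. The other probe of MXI1 gave -0.88, and MXI1 was past 2-fold in 7 of the 10 alternatives. SERPINB6, an intracellular protease inhibitor, stood at -0.52, -3.36, -0.34, -0.70 and -0.71 over the arrays in that order, and its 3 probes gave 2.86 to 3.02. TMC7, a transmembrane channel-like protein, gave 2.65 to 2.83 over 3 probes. ZC3H14, a protein that binds poly(A) tails, gave 1.98 to 2.16 over 3 probes, SORD, the sorbitol dehydrogenase, 2.04 and 2.08, and PUSL1, a pseudouridine synthase-like protein, 1.96 and 2.54. TLDC1 and C6orf203 differed by 2.29 and 2.34. These genes were picked by their weakest probe, so that all their probes are past 2-fold is fixed by the choice and supports nothing. Their differences were past 2-fold under all 10 alternatives, which rest on the same arrays and include the filters on dim probes, which could not change them.

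**Figure D4:**
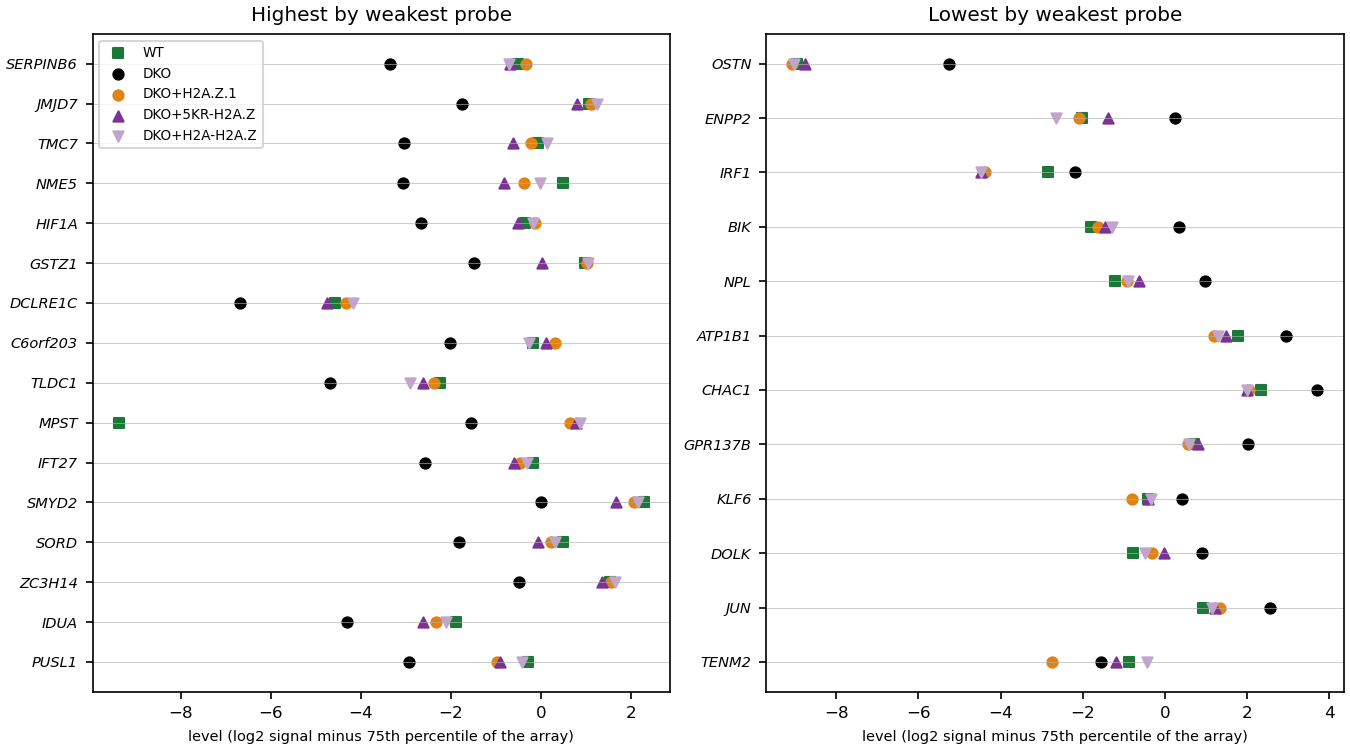
Levels on the 5 arrays (log2 relative to the 75th percentile of the array) of the 16 genes highest (left) and the 12 lowest (right) by the weakest of their probes, among genes with 2 or more measured probes. DKO (black) lies to the left of DKO+H2A.Z.1 (orange) for the left genes and to the right for the right genes, as the choice of genes fixes; WT (squares) lies far to the left for MPST at -9.37. Values near -9, OSTN and MPST in WT among them, are not well above background.

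The lower genes included a small group of immediate early and amino acid stress genes. Immediate early genes are transcription factors and phosphatases induced within minutes of a stimulus, and 3 of 7 were lower, against 2.65% of all genes. JUN stood at 0.92 in WT, 2.55 in DKO, 1.34 in DKO+H2A.Z.1, 1.20 in the DKO+5KR-H2A.Z line and 1.14 in DKO+H2A-H2A.Z, with its probes at -1.21 and -1.30. KLF6 stood at 0.42 in DKO and -0.81 in DKO+H2A.Z.1, with 3 probes from -1.23 to -1.31. FOS read -2.03 on its brighter probe but -0.01 on the other. DUSP1, MYC and SRF differed by -0.57, -0.53 and -0.45, and DUSP4 by 0.14. JUN and KLF6 were under 2-fold with spike-in scaling (-0.66 and -0.68) and in the authors' value table, while the list's median stayed 0.23 to 0.47 below that of all genes.

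Of 13 genes of serine synthesis and amino acid stress 3 were lower and 0 higher, with a median of -0.57. Of all genes 2.65% were lower and 8.08% higher. PSPH, the last enzyme of serine synthesis, stood at 2.10 in WT, 4.42 in DKO, 2.41 in DKO+H2A.Z.1, 2.76 in the DKO+5KR-H2A.Z line and 2.26 in DKO+H2A-H2A.Z, with DKO the high array and a difference of -2.0. CHAC1 read 3.71 in DKO and 2.03 in DKO+H2A.Z.1, and SLC7A5, the large amino acid carrier, 4.80 and 3.61. SLC7A5 was past 2-fold in only 6 of the 10 alternatives, with a smallest difference of -0.64. ATF4, the transcription factor of this response, lay just inside 2-fold, at 7.68 and 6.74, with all 4 probes between -0.89 and -0.94. MTHFD2, of mitochondrial folate metabolism, differed by -0.80 and ASNS, the asparagine synthetase, by -0.45. Relative to the median of all genes the list lay 0.27 to 0.37 lower in every setting run. Neither this list nor the immediate early list was set against genes of like WT level. In the highest of the 4 parts by WT level the median difference was -0.35.

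Genes of cholesterol synthesis showed a narrower shift, in which no member reached 2-fold and 0 of 15 lay above 0. Of all 4345 genes 1455 lay above 0, and 8.08% were called higher and 2.65% lower. The cholesterol genes were named as follows. They ran from -0.77 for DHCR7, the last step of the pathway, to -0.18 for HMGCS1, an early step, with SQLE, the squalene epoxidase, at -0.71. Their median of -0.54 lay 0.25 to 0.34 below that of all genes in every setting, although with spike-in scaling the median itself was 0.01. Neither this median nor those that follow were set against genes of like WT level. Among the 48 measured cytosolic ribosomal proteins RPL22L1 (-1.03) was the single call, past 2-fold in 5 of the 10 alternatives. Of these proteins 1 of 48 lay above 0, and their median was -0.49. This shift depended on the scaling, since relative to all genes it ranged from -0.30 to 0.02. Proteasome subunits had 0 calls among 27, with 0 of 27 above 0, and a median of -0.39, which relative to all genes ranged from -0.20 to 0.00. Lying wholly below 0 was thus not particular to the cholesterol genes.

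Further lower genes were single cases, among them surface and secreted proteins. SDC4, the heparan sulfate proteoglycan syndecan-4, stood at -1.48 in WT, -1.46 in DKO, -3.86 in DKO+H2A.Z.1, -2.85 in the DKO+5KR-H2A.Z line and -4.03 in DKO+H2A-H2A.Z. DKO and WT were alike for it and the 3 complemented lines lower, and the difference was -2.40. ENPP2, which makes lysophosphatidic acid, stood at -2.02, 0.25, -2.09, -1.38 and -2.65, so that DKO was the high array, and differed by -2.33 and -1.95 on its probes. CDH11, a cadherin, differed by -2.33, with 3 probes from -1.74 to -2.70, the last of them not well above background in DKO+H2A.Z.1 and with a bound of -1.06. OSTN, which encodes the secreted osteocrin, was well above background in DKO at -5.25 and at least 4.47-fold lower with H2A.Z.1. With normexp background correction OSTN differed by -0.87. TENM2, a teneurin, stood at -0.86 in WT, -1.56 in DKO, -2.75 in DKO+H2A.Z.1, -1.19 in the DKO+5KR-H2A.Z line and -0.44 in DKO+H2A-H2A.Z, which made DKO+H2A.Z.1 the lowest of the 5. ATP1B1, the beta subunit of the sodium pump, was lower by -1.54 to -1.82 on 4 probes. NPL, of sialic acid breakdown, differed by -1.91 and DOLK, the dolichol kinase, by -1.23. In the adhesion and matrix list as a whole, 3 of 41 were higher and 2 lower, against 8.08% and 2.65% of all genes, and for CDH10 and COL4A1 among the higher ones the bound was only 1.57-fold and 1.63-fold, as both were not well above background in DKO.

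Agreement between probes gave a further check within an array, beside the spread of replicate spots. A gene was called on its brightest probe, so unless taken at a bound that probe is past 2-fold by the call itself. Of the 351 higher genes 205 had 2 or more measured probes. In 138 of these every probe was past 2-fold, a probe not well above background on 1 of the arrays being taken at its bound, and in 7 a probe had the opposite sign. Of the 115 lower genes 50 had 2 or more, all past 2-fold in 24, with an opposite probe in 1. VIM, the intermediate filament vimentin and a fibroblast marker, shows the disagreement: its brightest probe differed by 3.20 (a bound of 2.68), and another by 0.34.

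**Figure D5:**
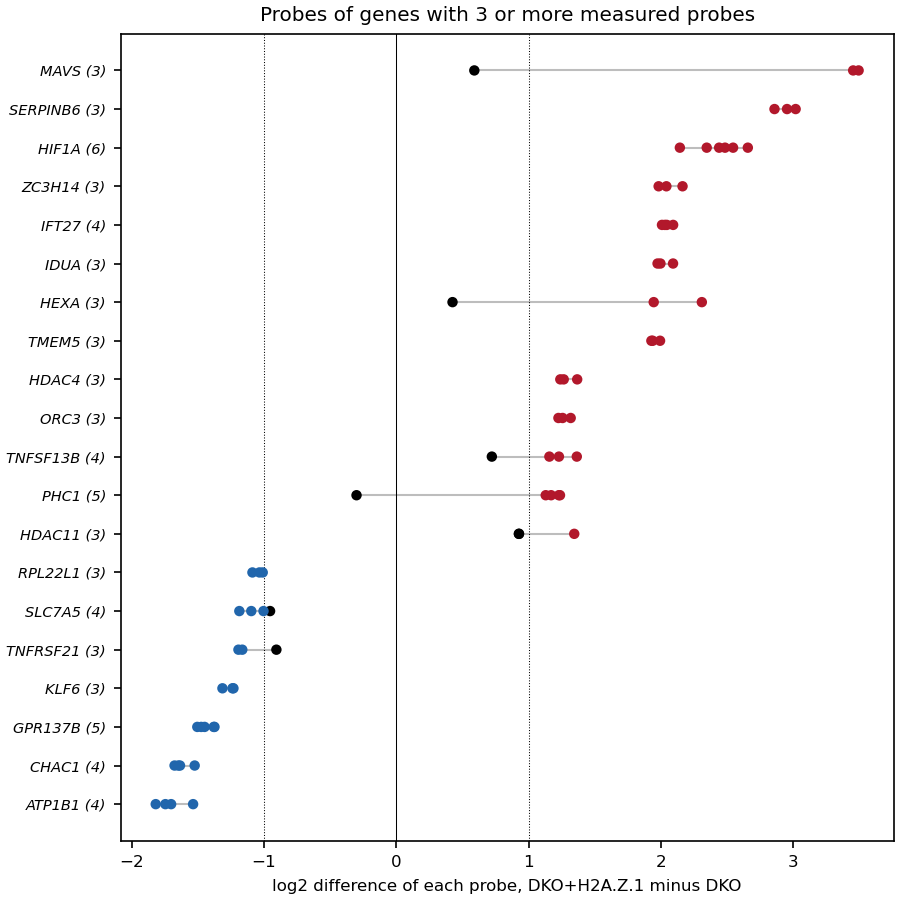
Difference, DKO+H2A.Z.1 minus DKO on the log2 scale, of each probe well above background on both arrays, for the 20 named genes with 3 or more such probes (number in brackets). Red and blue points are at least 2-fold higher or lower and black points are not. HIF1A, SERPINB6 and IFT27 have all points past 2-fold, as their choice by the weakest probe fixes. MAVS, HEXA and PHC1 each have 1 point apart from the rest.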

How the data were processed

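RNA of 5 DT40 cultures (100 ng each) was hybridised to one-colour Agilent arrays. Per the file headers, images were converted by Feature Extraction software, version 11.5.1.1, and the deposited intensity of each spot is its background-subtracted brightness on a linear scale. In the authors' own value table the same intensity is multiplied by a constant per array, from 1.03 for DKO+H2A.Z.1 to 1.23 for DKO, with column medians of 92.1 to 121.7. The sources used here do not say how it was set.

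Signals were put on a log2 scale and the 75th percentile over non-control spots was subtracted array by array. Marked spots (2 on the DKO and 5 on the DKO+H2A.Z.1 array) were left out and spots of a probe averaged. Probes were named by RefSeq accession through a GRCg7b gene table: 11935 of 43603 matched, 1141 spots with such an accession did not, and older symbols were kept where the table holds them (BLNK was read under the entry SH2D6). A gene was read from its brightest probe over 5 arrays. For a gene with no probe above background in 1 line, the fold was bounded by using, for that line, whichever was higher, its own value or the dimmest signal called well above background. Where its own value was the higher, this changed nothing and the fold is not a lower limit. Such bounds hold for the main background handling alone, and normexp could give smaller differences. Sequences and coordinates were not used here, and a few genes that enter the counts are not reported here by name.

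With 1 array per line no test was run, and the number of arrays limits the precision. The comparison, its 39 gene lists and the genes named were chosen with earlier results of these data known. Genes to be named were H2AFZ, the 16 highest and 12 lowest by their weakest probe, the 10 highest and 8 lowest with 1 probe, the 5 largest bounds each way, and up to 5 called members of each list. Values printed for further list members, to complete a list, were chosen after they were seen. As most genes were chosen by their difference from 1 DKO array, that DKO lies apart from the other lines is no independent support. Alternatives were normexp (offset 50, on median spot and background intensities), quantile normalization, median centring, cyclic loess, spike-in scaling (8 probes), both filters on dim probes, the authors' table, the median over probes, marked spots kept, and thresholds of 1.5-fold and 3-fold. Both filters leave the value of a gene as it is, and the median over probes does so for a gene with 1 probe. Keeping marked spots changed no call among the named genes. Counts out of the 10 alternatives include these settings. The steps were tested on simulated data. Python 3.11.15, pandas 2.3.3, R 4.3.3 and limma 3.58.1 were used.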

Additional observations from a re-analysis of the deposited data

How the results depend on the processing

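Counts depended on the scaling and on how dim spots were treated. Of the 3863 probes and 466 genes apart, normexp background correction left 1259 and 240 (197 genes higher and 43 lower), and spike-in scaling gave 6491 and 761 (724 and 37). At 1.5-fold the counts were 9012 and 1142 (603 and 539) and at 3-fold 1702 and 200 (165 and 35). Lower genes numbered 58 in the authors' table and 220 without a filter for dim spots, while 162 genes were apart when only those with all of 2 or more probes past 2-fold were counted. Lower genes were 24.7% of the calls in the main setting, 38.2% with median centring, 36.5% with no filter, 10.9% in the authors' table and 4.86% with spike-in scaling. Of 115 named and called genes, 62 were past 2-fold in every setting (48 higher and 14 lower). Signs turned for CDH10 (-0.11), COL4A1 (-0.21) and RAB40B (-0.20) with normexp and for DHRS3 (-0.042) with the median over probes; the cause was not tested. All of these were not well above background in DKO. With normexp the differences of CRADD, SPAG6, DCLRE1C, OSTN, RGS7, SNAI1 and ST6GALNAC5, without a bound, fell under 2-fold and that of MAT1A did not. Naming unmatched probes by the files' own gene names was not run. Between 29137 and 30574 of 43803 spots per array were well above background, which limits what dim genes can show. No paired analysis was possible because each line has 1 array and the lines share only the replicate number 1.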

Other observations

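Shares of called genes per chromosome, taken from the GRCg7b gene table for chromosomes with at least 50 measured genes, are given without a test and with the extremes chosen after they were seen. Of all genes 8.08% were higher and 2.65% lower. On chromosome 1, 12.5% of 600 genes were higher in DKO+H2A.Z.1 and on chromosome 3, 12.4% of 331. The lowest shares rested on 2 of 101 genes on chromosome 13, 1 of 55 on chromosome 25 and 1 of 64 on chromosome 26. On chromosome 13, 7 genes were lower. The median WT level was 0.84 on chromosome 1, 1.09 on chromosome 13 and -1.52 on chromosome 25.

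Of 1343 pairs of neighbouring genes both measured, 9 had both genes higher, 0 had both lower and 4 were called in opposite directions. Of all genes 8.08% were higher and 2.65% lower, and nothing particular to neighbours is read from the counts. The pairs called higher together included MPST and TST, USP6NL (1.13) and ECHDC3 (2.13), PIGK (1.52) and ST6GALNAC5 (at least 4.97-fold), and LRRC7 (1.5) and LRRC40 (2.11). With normexp background correction ST6GALNAC5 differed by 0.36. WWC1 (3.97) and TENM2 (-1.20) were neighbours called in opposite directions.

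Some genes had their lowest level in a line other than DKO. OAF stood at -0.83 in WT, -4.28 in DKO, -6.31 in DKO+H2A.Z.1, -8.31 in the DKO+5KR-H2A.Z line and -1.34 in DKO+H2A-H2A.Z. LITAF, a gene of the NF-kB and TNF list, stood at 0.03, 5.6, 4.59, 5.09 and 3.09 in the same order, with WT the low array and DKO the highest. The second probe of LITAF gave -0.96, and LITAF was past 2-fold in only 4 of the 10 alternatives.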
